A study of Mus musculus with 6 samples.

Results

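The genes described here are the matrix metalloproteinases (Mmp), the tissue inhibitors of metalloproteinases (Timp), the ADAM proteases (Adam), the secreted ADAMTS proteases (Adamts) and the ADAMTS-like proteins (Adamtsl) of mouse fibroadipogenic progenitors (FAPs). They were chosen by symbol alone, as every row named Mmp, Timp, Adam, Adamts or Adamtsl with a number and an optional letter. This gave 55 of the 16894 genes in the table: 16 Mmp, 3 Timp, 15 Adam, 16 Adamts and 5 Adamtsl genes. FAPs, a mesenchymal population of muscle, are able to form fibroblasts and adipocytes. They were purified from muscle of young C57BL/6 mice with magnetic beads, as cells that carry SCA-1 and lack CD45, CD31 and α7-integrin, and were then cultured. Bulk RNA-seq was run on 3 libraries of control (non-senescent) FAPs and 3 of senescent FAPs, which had received the topoisomerase poison etoposide at 20 μM for 48 h and had then spent 5 days in normal medium. Neither the labels nor the methods say whether libraries of a group came from separate animals, so the p-values measure the spread between these libraries, which may be technical.

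Proteases of these families are zinc enzymes that act outside the cell or at its surface, and all of them are made with a propeptide that keeps the enzyme silent until it is removed. MMPs cleave collagens, proteoglycans and other matrix proteins, TIMPs plug their active site, ADAMs release membrane-bound growth factors, cytokines and receptors, and ADAMTS enzymes trim proteoglycans and procollagens in the matrix. ADAMTS-like proteins share the matrix-binding modules of ADAMTS enzymes without the protease domain. In muscle, stromal cells such as FAPs are a main source of matrix and of the enzymes that remodel it, and secreted MMPs are often named among the factors that senescent fibroblasts release.

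Values are CPM, the reads of a gene relative to the library's effective size, scaled as usual for CPM, and rest on 41412179 to 59912520 reads on genes per library. One read was worth 0.0167 to 0.0225 CPM. The labels were checked on marker genes. All 10 FAP markers were measured, and they moved with the group too: 7 passed the test upward and 1 downward, with Dcn 3.17 and Cd34 3.11 times the control mean, Col1a1 at 0.200 of it, and Pdgfra (192 CPM in control and 218 CPM in senescent FAPs) not passing the test. Cdkn1a rose from 289.9 to 1038 CPM, and the proliferation gene Mki67 fell from 158 to 12.7 CPM. Cdkn2a, another senescence gene, averaged 85.5 CPM in control and 90.0 CPM in senescent FAPs and did not pass the test (adjusted p = 0.765). Markers of leukocytes moved with the group. Of the 10 on the list, 7 were analysed here, and Ptprc, Adgre1 and Tyrobp had no row. Of the 5 tested, 4 were higher in senescent FAPs. The 7 summed to 11.3 to 14.1 CPM in control and 27.0 to 33.1 CPM in senescent libraries. Cd53, the highest of them in senescent FAPs, averaged 1.98 CPM in control and 11.4 CPM in senescent FAPs. Csf1r, the highest in control, averaged 6.74 and 7.56 CPM and did not pass the test (limma adjusted p = 0.343). Fcer1g (0.244 and 0.212 CPM) and Laptm5 (0.0567 and 0.456 CPM) were not tested. Itgam, a defining marker of myeloid cells, was at 0 in 2 control libraries and at 0.516, 0.837 and 0.540 CPM in the senescent ones. It passed the filter on low values (given below) only through the senescent libraries. The 3 myogenic markers analysed here (of 8 on the list) summed to 46.5 to 53.8 CPM in control and 94.2 to 110.6 CPM in senescent libraries. Most of this sum was Vcam1, with means of 34.1 CPM in control and 77.4 CPM in senescent FAPs. Itga7 averaged 11.1 and 20.2 CPM, and Des 6.07 and 7.36 CPM without passing the test (limma adjusted p = 0.415). Pax7, Myf5, Myod1, Myog and Cdh15 had no row and so were not analysed here. The 5 endothelial markers analysed (of 8) summed to 19.2 to 39.5 CPM in control and 23.8 to 31.2 CPM in senescent libraries. All 6 pericyte and smooth muscle markers summed to 298 to 393 CPM in control and 250 to 273 CPM in senescent libraries. Of the 5 tested, 2 were higher in senescent FAPs and 1 lower. Most of the sum was the lower gene, Cspg4, with means of 288 CPM in control and 167 CPM in senescent FAPs. Rgs5 was among the higher ones (1.32 and 4.70 CPM). The part of such cells in the differences given next was not tested, and in bulk RNA a change in the number of cells of a type and in the RNA per cell cannot be told apart. Control replicate 2 stood apart from the other control libraries on the second principal component.

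More of the genes were higher than lower in senescent FAPs. Of the 50 that passed the filter on low values (at least 0.5 CPM in 3 or more libraries), 20 were higher and 12 lower at an adjusted p under 0.05, and 18 did not pass the test. Over all 14776 genes tested, 21.8% were higher and 24.3% lower, against 40.0% and 24.0% of the 50. The share of lower calls was thus about that of all genes. Of the 20 higher genes, 4 reached 0.5 CPM in all senescent but not in all control libraries, and for 1 of the 12 lower genes the reverse held. Such genes pass the filter through the group in which they are higher. The median log2 fold change of the 50 was 0.24, beside -0.03 over all genes tested, and single values ran from -1.88 (Adam12) to 3.70 (Mmp3). Senescent libraries lay wholly above the control libraries for 20 of the 50 and wholly below for 12, against 26.5% and 30.9% of all genes tested. Without control replicate 2 the counts were 19 higher and 14 lower, and with the replicate numbers as a block they were 22 and 15.

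By subfamily, the counts are to be read against the 21.8% higher and 24.3% lower of all genes tested. In the MMP genes 9 of 15 tested were higher and 2 lower, with a median log2 fold change of 0.62. Of these 9, Mmp13, Mmp10, Mmp9 and Mmp24 reached 0.5 CPM in all 3 senescent libraries but in only 1, 0, 2 and 1 control libraries. They thus passed the filter through the group in which they are higher. Of the 3 TIMP genes 2 were higher, with a median of 0.68. Of 14 ADAM genes 3 were higher and 3 lower, close to the shares over all genes in both directions, with a median of 0.11. Of 14 ADAMTS genes 3 were higher and 6 lower, with a median of -0.39. Of the 4 ADAMTS-like genes tested 3 were higher and 1 lower. These subfamily counts are descriptions of few genes each. On values divided by library totals alone they became 10 and 1 (MMP), 2 higher (TIMP), 3 and 2 (ADAM), 3 and 4 (ADAMTS) and 3 and 1 (ADAMTS-like).

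**Figure D1:**
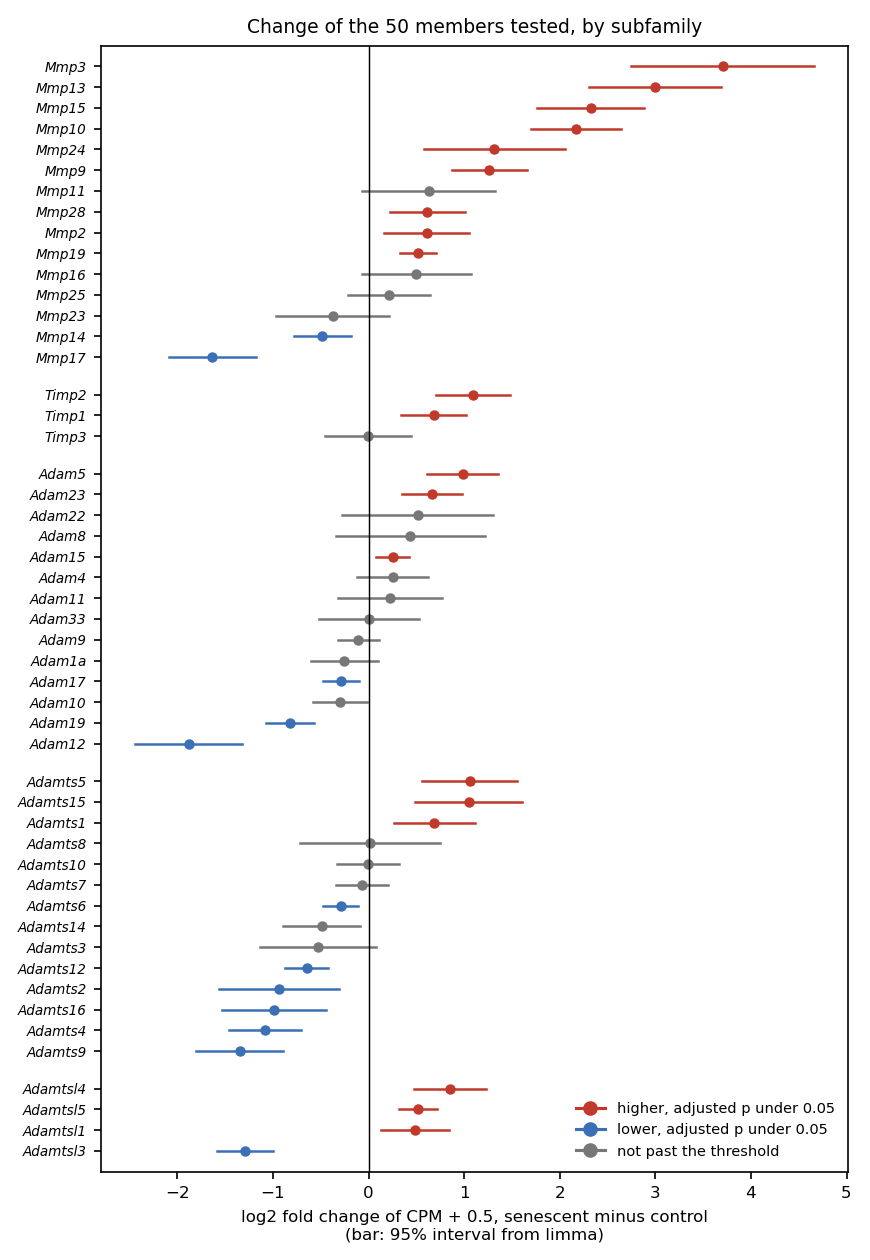
Log2 fold change of CPM + 0.5 (x axis, senescent minus control) of the 50 genes tested, in blocks of Mmp, Timp, Adam, Adamts and Adamtsl from top to bottom, each point with its 95% interval from limma. Red points are higher and blue points lower in senescent FAPs at an adjusted p under 0.05, and grey points did not pass the test; the MMP block reaches from 3.70 (Mmp3) to -1.63 (Mmp17), and the ADAM block down to -1.88 (Adam12).

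The inhibitors came first by level. Timp1, a secreted inhibitor of most MMPs that is also induced in wounds, was at 1619, 2083 and 1590 CPM in the control libraries (here and from here on in the order of replicates 1 to 3) and at 2671, 2804 and 2951 CPM in the senescent libraries. Every senescent library was above every control library, and the rise was 0.68 on the log2 scale (SE 0.15, n = 3 and 3, limma adjusted p = 0.00759). Timp2, which inhibits MMPs and also helps MMP14 to activate the MMP2 zymogen, was at 1046, 1335 and 1258 CPM in control and at 2110, 2722 and 2959 CPM in senescent libraries. Its level was thus 2.14 times that of control FAPs, with no overlap (log2 fold change 1.09, SE 0.17, limma adjusted p = 0.00183). Timp3, which is bound to the matrix and inhibits ADAM17 and aggrecan-cleaving ADAMTS enzymes beside MMPs, had the most reads of the 55 genes. It stood at 5682, 5126 and 6820 CPM in control and at 5327, 5804 and 6358 CPM in senescent libraries. The groups overlapped, the log2 fold change was -0.01 with a 95% interval of -0.45 to 0.44, and its sign changed between scalings and tests (limma adjusted p = 0.985). Exons of Timp3 overlap those of Syn3 on the other strand, and the sources used here do not say if counting was by strand.

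By the ratio of mean CPM, the steepest rises among the 50 genes tested were in Mmp13, Mmp10 and Mmp3. Mmp3 (chr9:7445822-7455975 in GRCm38, plus strand, ENSMUSG00000043613.8) encodes a stromelysin that cleaves proteoglycans and fibronectin and activates other MMP zymogens. It was at 1.38, 5.40 and 3.82 CPM in the control libraries and at 32.8, 53.0 and 59.0 CPM in the senescent libraries, from 62, 284 and 213 reads against 1653, 3170 and 2623 reads. The lowest senescent library was well above the highest control library, and the mean was 13.7 times higher (log2 fold change 3.70, SE 0.41, limma adjusted p = 0.000562). Mmp13 (chr9:7272514-7283331, plus strand, ENSMUSG00000050578.10), the main fibrillar collagenase of mice, was at 0.0670, 0.685 and 0.0898 CPM in control libraries, or 3, 36 and 5 reads. In senescent libraries it was at 4.84, 6.44 and 4.93 CPM, or 244, 385 and 219 reads, which separates the groups fully (log2 fold change 3.00, SE 0.30, limma adjusted p = 0.000377). Control replicate 2 held most of the control reads of Mmp13, and was also the highest control library for Mmp3 and Mmp10. Mmp10 (chr9:7502352-7510240, plus strand, ENSMUSG00000047562.3), the other stromelysin, was at 0.0670, 0.342 and 0.0539 CPM in control libraries, that is 3, 18 and 3 reads. It reached 2.18, 2.64 and 2.39 CPM in senescent libraries, that is 110, 158 and 106 reads (log2 fold change 2.17, SE 0.20, limma adjusted p = 0.000326). A pseudocount of 0.5 shrinks the change of genes this low: edgeR on the recovered reads gave log2 fold changes of 3.79 for Mmp3, 4.26 for Mmp13 and 3.95 for Mmp10.

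The 3 genes lie within one MMP cluster on chromosome 9, on the same strand, and Mmp27 (chr9:7571396-7581885) lies in it too. Mmp27 held 7, 12 and 4 reads in control and 12, 23 and 16 reads in senescent libraries and did not pass the filter. Other genes of the cluster (Mmp12, Mmp1b, Mmp8, Mmp20 and Mmp7) had no row and so were not analysed here. Because Mmp3, Mmp13 and Mmp10 moved together, the bases before their starts are shown, as given by RefSeq on GRCm38.p6 for 250 bases upstream of each start, 5′ to 3′ on the plus strand. Capitals mark the 7 letters TGANTCA, the motif bound by AP-1 (Fos and Jun), a textbook element of stromelysin and collagenase promoters. The windows are chr9:7445572-7445821 for Mmp3, chr9:7502092-7502341 for Mmp10 and chr9:7272264-7272513 for Mmp13.
Mmp3: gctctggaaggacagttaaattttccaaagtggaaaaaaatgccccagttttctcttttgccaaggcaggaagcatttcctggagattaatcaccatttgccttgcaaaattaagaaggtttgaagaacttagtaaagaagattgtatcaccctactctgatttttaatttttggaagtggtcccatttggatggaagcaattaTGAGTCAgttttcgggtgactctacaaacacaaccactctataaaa
Mmp10: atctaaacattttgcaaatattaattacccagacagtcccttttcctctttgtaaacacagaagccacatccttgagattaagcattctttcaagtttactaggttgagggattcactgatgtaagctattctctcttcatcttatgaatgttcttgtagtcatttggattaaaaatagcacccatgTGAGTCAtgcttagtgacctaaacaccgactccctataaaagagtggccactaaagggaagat
Mmp13: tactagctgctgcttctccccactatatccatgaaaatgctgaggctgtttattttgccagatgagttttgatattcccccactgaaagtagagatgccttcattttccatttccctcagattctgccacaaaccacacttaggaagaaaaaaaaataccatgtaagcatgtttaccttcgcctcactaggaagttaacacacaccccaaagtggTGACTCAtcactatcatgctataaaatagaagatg
The motif began 46 bases before the start in Mmp3, 63 in Mmp10 and 35 in Mmp13, as TGAGTCA in the first and second and TGACTCA in the third. RefSeq promoters of 300 bases (250 before and 50 after a start) were matched for 34 of the 55 genes. TGANTCA, which reads the same on both strands, occurred in those of 4 genes, the 3 above and Adam19 (at 1 of its 3 starts), against 8.97% of all 27025 genes with a match at any of their starts. TATAAA on either strand occurred in 5 of the 34 (Mmp3, Mmp10, Mmp13, Adamts1 and Adamtsl2) against 15.7% of all genes, and AGGAAG on either strand, the motif of PEA3 (ETS) factors, in 10 of the 34 against 38.4%. In none of the 3 printed windows do the AP-1 letters overlap a TATAAA or AGGAAG match. Adam19 fell while the 3 MMP genes rose. A match describes letters only, and binding of a factor was not measured.

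Both gelatinases, which cleave denatured collagen and the collagen of basement membranes, were higher in senescent FAPs, at very different levels. Mmp2, the constitutive one, was at 471, 802 and 567 CPM in control and at 1019, 885 and 841 CPM in senescent libraries. The lowest senescent library was only slightly above control replicate 2 (log2 fold change 0.61, SE 0.19, limma adjusted p = 0.0328). That call was lost when control replicate 1 or 3 or any senescent library was left out, with adjusted p from 0.0678 to 0.0939. Mmp9, the inducible gelatinase, which leukocytes also make, was at 0.424, 0.589 and 0.592 CPM in control libraries (19, 31 and 33 reads) and at 2.07, 2.31 and 1.62 CPM in senescent libraries (104, 138 and 72 reads). Its groups were fully apart (log2 fold change 1.27, SE 0.17, limma adjusted p = 0.00116).

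The membrane-type MMPs, which work at the cell surface, went both ways. Mmp14, a transmembrane collagenase and activator of MMP2, was at 936, 889 and 853 CPM in control and at 765, 609.6 and 556 CPM in senescent libraries, with no overlap (log2 fold change -0.48, SE 0.13, limma adjusted p = 0.0183). Its fall depended on the scaling and on single libraries: on values divided by library totals it was -0.27 with an adjusted p of 0.115, and without control replicate 1, senescent replicate 2 or senescent replicate 3 the adjusted p was also above 0.05. Mmp15, a transmembrane relative, was at 1.09, 1.05 and 2.33 CPM in control and at 8.86, 8.95 and 9.45 CPM in senescent libraries. It was thus about 6.09 times higher with the senescent libraries close together (log2 fold change 2.33, SE 0.24, limma adjusted p = 0.000432). Mmp24, another transmembrane type known mainly from neurons, was at 0, 0.589 and 0.162 CPM (0, 31 and 9 reads) in control and 1.27, 0.853 and 1.82 CPM in senescent libraries (log2 fold change 1.32, SE 0.32, limma adjusted p = 0.0125). The call for Mmp24 was lost without senescent replicate 3 (adjusted p = 0.0513) and with edgeR on the recovered reads (adjusted p = 0.0512). Mmp16 was at 2.86, 4.16 and 5.78 CPM in control and 5.18, 5.67 and 7.45 CPM in senescent libraries, with overlap (log2 fold change 0.50, SE 0.25, limma adjusted p = 0.133). With the replicate numbers as a block Mmp16 passed the test (adjusted p = 0.0302), as it did without control replicate 3, where the log2 fold change was 0.72, whereas without control replicate 1 it was 0.27 (adjusted p = 0.348).

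The GPI-anchored types differed from each other. Mmp17 was at 24.6, 26.4 and 36.0 CPM in control and 11.4, 7.41 and 8.26 CPM in senescent libraries, and its fall to 0.311 of the control mean was the largest among the MMP genes tested (log2 fold change -1.63, SE 0.20, limma adjusted p = 0.000737). Mmp25, known from leukocytes, was near the filter's limit at 0.580, 0.380 and 0.305 CPM in control and 0.695, 0.602 and 0.405 CPM in senescent libraries, with overlapping groups (limma adjusted p = 0.378).

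Of the 4 MMP genes not yet described, 2 were higher. Mmp19, at 66.1, 65.6 and 73.6 CPM in control and 105, 92.0 and 97.4 CPM in senescent libraries, was higher with no overlap (log2 fold change 0.52, SE 0.08, limma adjusted p = 0.00227). Mmp28, at 6.18, 5.04 and 7.56 CPM in control and 9.23, 9.10 and 11.0 CPM in senescent libraries, was higher too (log2 fold change 0.62, SE 0.17, limma adjusted p = 0.0198), a call lost without senescent replicate 2 or 3 (adjusted p up to 0.0757). In Mmp11, a stromelysin activated inside the cell by furin, control replicate 2 stood low: the values were 100.8, 39.7 and 79.0 CPM in control and 109, 113 and 95.00 CPM in senescent libraries (log2 fold change 0.63, SE 0.30, limma adjusted p = 0.123). The same library stood low in Mmp23, which was at 115, 57.5 and 115 CPM in control and 77.3, 64.6 and 69.1 CPM in senescent libraries (log2 fold change -0.38, SE 0.25, limma adjusted p = 0.255). Without control replicate 2, Mmp23 was lower in senescent FAPs by -0.71 on the log2 scale (adjusted p = 0.000727), and without control replicate 1, Mmp11 passed the test as higher (log2 fold change 0.91). Without control replicate 2, the log2 fold change of Mmp11 was 0.24 and did not pass. Exons of Mmp11, Mmp19, Mmp24 and Mmp28 overlap exons of a protein-coding neighbour on the other strand.

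**Figure D2:**
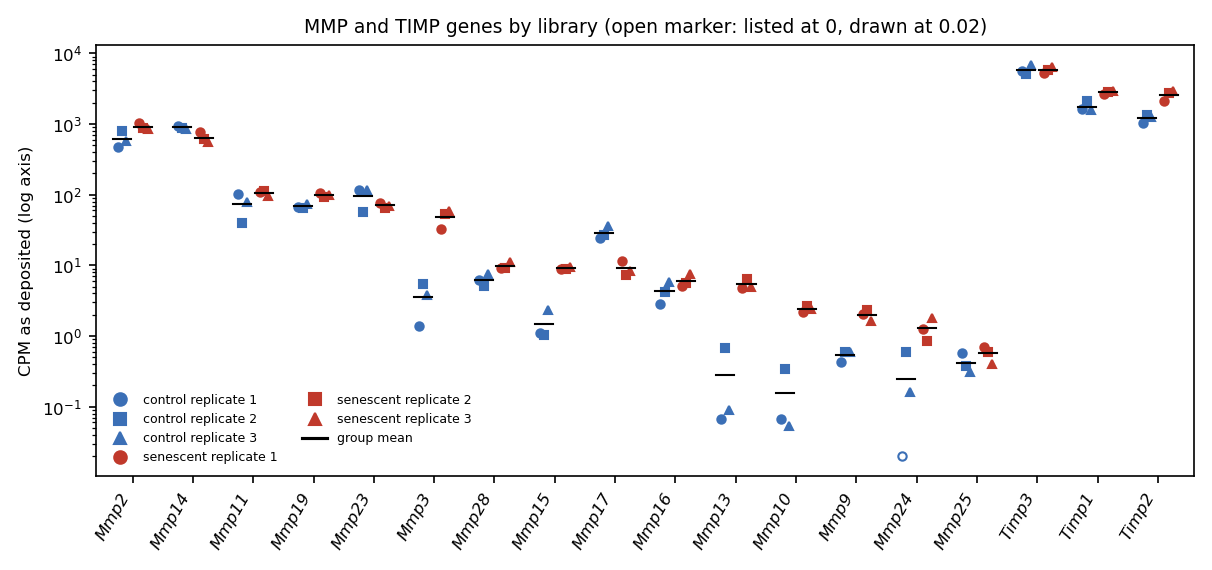
CPM as deposited (y axis, log scale) of 15 Mmp and 3 Timp genes in each of the 6 libraries, with control libraries in blue, senescent libraries in red, the marker shape giving the replicate number and a black bar the group mean; a library listed at 0 is an open marker at the bottom. Mmp3, Mmp13, Mmp15, Mmp10 and Mmp9 show the red points well above the blue ones, Mmp17 shows the reverse, and Timp3 shows both groups at the same height.

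Levels can be set side by side between genes only per length, and for that the mean CPM was divided by the length of a gene's merged exons (GENCODE M21). Timp1 then led all 55 genes in both groups, at 1986 CPM per kb in control and 3163 CPM per kb in senescent FAPs. Timp3 followed with 722 and 716 CPM per kb and Timp2 with 311 and 667 CPM per kb. Mmp2 (182 and 271 CPM per kb) and Mmp14 (149.8 and 108 CPM per kb) led the MMP genes. In senescent FAPs Mmp3 came to 26.8 CPM per kb, close to Mmp19 at 27.8 CPM per kb, whereas Mmp13 reached 2.02 and Mmp10 1.40 CPM per kb. These 3 genes were therefore still far below Mmp2 in level.

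Summed per library, the TIMP genes came to 2789 to 3318 CPM per kb in control and 4203 to 4863 CPM per kb in senescent libraries. The MMP genes summed to 408 to 454 and 478 to 562 CPM per kb. Neither pair of ranges overlapped, on the deposited scaling, with median-of-ratios factors or after division by library totals. The ratio of the TIMP sum to the MMP sum, which does not depend on a library's scaling, was 6.84, 7.30 and 7.02 in the control libraries (replicates 1 to 3, in that order) and 7.48, 9.14 and 10.2 in the senescent ones. ADAM genes summed to 305 to 344 CPM per kb in control and 233 to 244 CPM per kb in senescent libraries, which were lower with each of those scalings. For the ADAMTS genes the ranges overlapped at 87.2 to 133 and 104 to 106 CPM per kb. The ADAMTS-like genes summed to 20.7 to 25.4 CPM per kb in control and 29.9 to 32.8 CPM per kb in senescent libraries. These sums rest mostly on a few abundant genes and are given without a test.

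**Figure D3:**
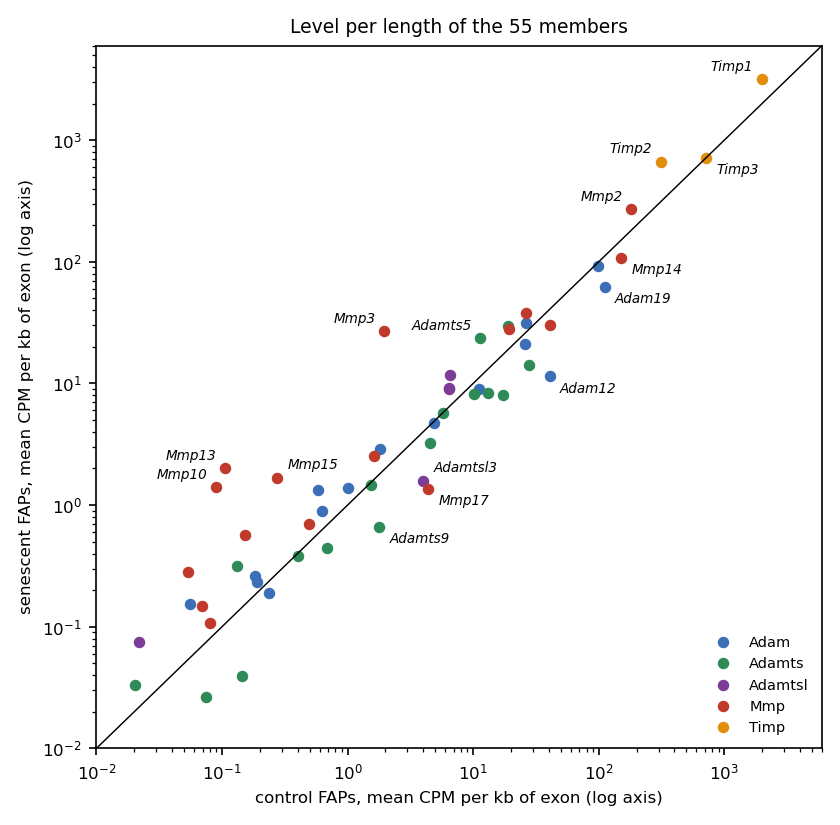
Mean CPM per kb of exon in control FAPs (x axis) and in senescent FAPs (y axis), both on log scales, for all 55 genes, coloured by subfamily, with the line of equal level. The TIMP genes hold the top right corner, Mmp3, Mmp13, Mmp10 and Mmp15 lie far above the line, and Adam12, Mmp17, Adamtsl3 and Adamts9 lie below it.

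Among the ADAM genes, Adam19 and Adam12, which with Adam9 had the highest levels per length in control FAPs, were lower in senescent FAPs. Adam12 (meltrin alpha), known from fibrogenic stroma and from developing and regenerating muscle, was at 456, 444 and 389 CPM in control and at 179, 98.6 and 88.6 CPM in senescent libraries. On the scale of log2(CPM + 0.5) this was the largest fall among the 50 genes tested (log2 fold change -1.88, SE 0.24, limma adjusted p = 0.000927), and senescent replicate 1 kept the highest level of its group. As a ratio of mean CPM it fell to 0.284 of control, and the much lower Adamts16 to 0.271. Adam19 (meltrin beta), a sheddase of neuregulins and the ADAM gene with the most CPM, was at 688, 798 and 892 CPM in control and 446, 452 and 437 CPM in senescent libraries. The senescent libraries were nearly equal and all below control (log2 fold change -0.82, SE 0.11, limma adjusted p = 0.00101). Adam17, the sheddase of TNF and of TGF-alpha, was at 81.2, 73.0 and 83.9 CPM in control and 65.0, 61.8 and 67.7 CPM in senescent libraries (log2 fold change -0.29, SE 0.08, limma adjusted p = 0.0215). This small fall was lost on values divided by library totals (log2 fold change -0.08, adjusted p = 0.436) and without control replicate 1, control replicate 3 or senescent replicate 2, and exons of Adam17 overlap those of Iah1 on the other strand.

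The higher ADAM genes were a mixed set. Adam23, an adhesion ADAM without protease activity, was at 32.7, 27.2 and 37.2 CPM in control and 58.8, 47.0 and 48.4 CPM in senescent libraries (log2 fold change 0.66, SE 0.14, limma adjusted p = 0.00623). Adam5, known from testis, was low but fully separated, at 1.76, 1.84 and 1.87 CPM in control and 3.95, 3.50 and 4.95 CPM in senescent libraries (log2 fold change 0.98, SE 0.16, limma adjusted p = 0.00250). Adam15 rose from 166, 159 and 156 CPM to 181, 206 and 188 CPM (log2 fold change 0.25, SE 0.07, limma adjusted p = 0.0277), a call lost without control replicate 3, senescent replicate 2 or senescent replicate 3 (adjusted p from 0.0623 to 0.114).

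The other 8 ADAM genes tested had log2 fold changes from -0.30 to 0.51 and adjusted p from 0.0797 to 0.987. They include Adam9, next in level per length to Adam19 in control FAPs, and Adam10, the sheddase of Notch receptors and betacellulin. Adam10 was at 113, 141 and 129.6 CPM in control and 89.0, 109 and 115 CPM in senescent libraries, and with the replicate numbers as a block it was lower (log2 fold change -0.30, adjusted p = 0.0149). Under the same block the adhesion gene Adam22, at 5.20, 10.04 and 11.8 CPM in control and 8.08, 15.4 and 15.2 CPM in senescent libraries, was higher (log2 fold change 0.51, adjusted p = 0.0114). Leaving out 1 library moved the log2 fold change of Adam22 to between 0.18 (without control replicate 1) and 0.81, none of which passed the test, and that of Adam10 to between -0.38 and -0.19. Adam10 and Adam22 were singled out after their values were seen.

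The ADAMTS enzymes that cleave proteoglycans such as versican and aggrecan parted into a higher and a lower set. Adamts5 was at 122, 89.8 and 159 CPM in control and 202, 273 and 287 CPM in senescent libraries, 2.06 times the control mean (log2 fold change 1.06, SE 0.21, limma adjusted p = 0.00599). Adamts1, its neighbour on chromosome 16 with 53.1 kb between them, was at 110.3, 71.2 and 118 CPM in control and 145, 164 and 164 CPM in senescent libraries (log2 fold change 0.69, SE 0.18, limma adjusted p = 0.0173). Control replicate 2 was the lowest library for both, and the call for Adamts1 was lost without senescent replicate 2 or 3 (adjusted p = 0.0623 and 0.0639). Adamts15 was higher at a low level, from 1.18, 0.913 and 1.99 CPM to 3.67, 3.58 and 2.57 CPM (log2 fold change 1.05, SE 0.24, limma adjusted p = 0.0104), whereas Adamts8, which lies 20.1 kb from it on the other strand, had overlapping groups (0.915, 1.84 and 2.78 CPM and 1.31, 1.72 and 2.27 CPM).

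In the opposite direction, Adamts4, an aggrecan-cleaving enzyme like Adamts5, was at 90.8, 63.5 and 95.3 CPM in control and 43.4, 38.2 and 34.2 CPM in senescent libraries. All senescent libraries were below control replicate 2, the lowest of its group (log2 fold change -1.08, SE 0.16, limma adjusted p = 0.00180). Adamts9 was at 22.9, 21.9 and 35.5 CPM in control and 11.4, 8.70 and 9.97 CPM in senescent libraries (log2 fold change -1.35, SE 0.20, limma adjusted p = 0.00156). Per length, Adamts4 and Adamts5 exchanged places: Adamts4 went from 17.3 to 8.03 CPM per kb and Adamts5 from 11.4 to 23.5 CPM per kb. Exons of Adamts4 and Adamts9 overlap exons of a protein-coding neighbour on the other strand.

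The enzymes that remove the amino-terminal propeptide of fibrillar procollagens all had negative values, and 1 of the 3 passed the test. Adamts2, the most abundant ADAMTS gene in control FAPs, was at 299, 157 and 331 CPM in control and 159, 118 and 117 CPM in senescent libraries (log2 fold change -0.94, SE 0.27, limma adjusted p = 0.0247). Control replicate 2 was as low as senescent replicate 1, so the groups overlapped, and the call was lost on values divided by library totals and without control replicate 1, control replicate 3, senescent replicate 2 or senescent replicate 3 (adjusted p from 0.0547 to 0.0890). Adamts14, at 24.5, 26.9 and 19.6 CPM in control and 20.5, 16.2 and 13.7 CPM in senescent libraries, had a log2 fold change of -0.49 and a limma adjusted p of 0.0512. Adamts3, at 4.66, 2.51 and 4.02 CPM and 3.30, 2.11 and 1.87 CPM, had a log2 fold change of -0.53 (limma adjusted p = 0.133). Both were lower with the replicate numbers as a block (adjusted p = 0.0122 and 0.0499), and both were singled out after their values were seen. Beside them Col1a1, which encodes a substrate chain, fell from 15545 to 3116 CPM. Col3a1, the other collagen gene among the FAP markers, averaged 10041 CPM in control and 6471 CPM in senescent FAPs. Its groups overlapped and it did not pass the test (log2 fold change -0.56, limma adjusted p = 0.229).

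Of the other ADAMTS genes, Adamts12, which cleaves cartilage oligomeric matrix protein, was at 145, 128 and 160.1 CPM in control and 98.5, 90.4 and 86.5 CPM in senescent libraries (log2 fold change -0.65, SE 0.10, limma adjusted p = 0.00181). Adamts16 was low, at 1.00, 0.875 and 1.08 CPM in control and 0.377, 0.402 and 0.0225 CPM in senescent libraries, with only 1 read in senescent replicate 3 (log2 fold change -0.99, SE 0.23, limma adjusted p = 0.0112). Adamts6, named after its values were seen, was at 76.2, 75.7 and 84.8 CPM and 67.6, 63.9 and 61.4 CPM (log2 fold change -0.29, SE 0.08, limma adjusted p = 0.0186). Its call was lost on values divided by library totals (log2 fold change -0.08, adjusted p = 0.427) and without control replicate 3, senescent replicate 2 or senescent replicate 3. Adamts7, Adamts8 and Adamts10 did not pass the test, with adjusted p from 0.661 to 0.979.

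**Figure D4:**
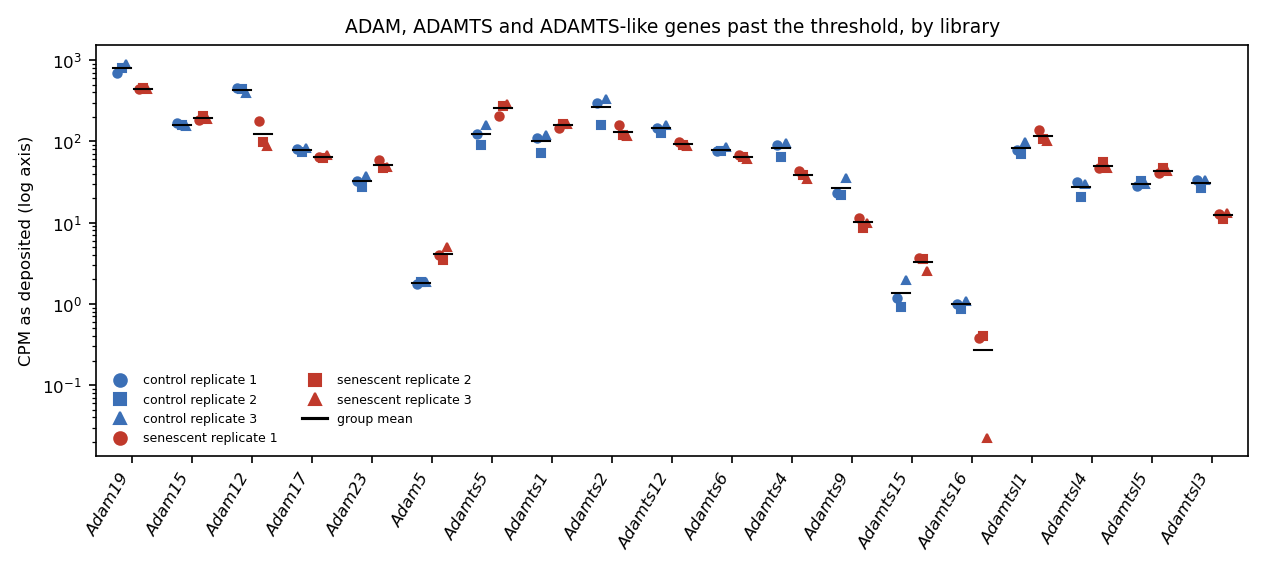
CPM as deposited (y axis, log scale) of the 19 Adam, Adamts and Adamtsl genes that passed the test, in each of the 6 libraries, with control libraries in blue, senescent libraries in red, the marker shape giving the replicate number and a black bar the group mean. Adam12, Adamts4, Adamts9 and Adamtsl3 sit lower in red than in blue, and Adamts5 and Adamtsl4 sit higher. In Adamts2 the square of control replicate 2 lies level with the red circle of senescent replicate 1.

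All 4 ADAMTS-like genes tested passed the test, 3 of them upward. Adamtsl4, a binder of fibrillin microfibrils, was at 32.0, 20.8 and 30.0 CPM in control and 46.5, 55.1 and 46.9 CPM in senescent libraries (log2 fold change 0.85, SE 0.16, limma adjusted p = 0.00480). Adamtsl5 was at 28.4, 32.1 and 30.0 CPM and 41.0, 46.6 and 42.6 CPM, with tight groups (log2 fold change 0.52, SE 0.09, limma adjusted p = 0.00285). Adamtsl1, with the most CPM of this subfamily, was at 79.2, 69.7 and 97.1 CPM and 137, 107 and 101.4 CPM (log2 fold change 0.49, SE 0.15, limma adjusted p = 0.0326). The call for Adamtsl1 was lost without control replicate 1, control replicate 2, senescent replicate 1 or senescent replicate 2 (adjusted p from 0.0605 to 0.0862). Adamtsl3 went the other way, at 33.4, 26.7 and 33.0 CPM in control and 12.9, 10.9 and 13.2 CPM in senescent libraries, with the groups far apart (log2 fold change -1.30, SE 0.13, limma adjusted p = 0.000361).

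Beside Mmp27, 4 more of the 55 genes did not pass the filter and were not tested. Adamtsl2 held 7, 12 and 8 reads in control and 35, 46 and 15 reads in senescent libraries, and Adamts20 held 38, 25 and 38 reads and 15, 14 and 8 reads, so both had groups without overlap at under 1 CPM. With no filter on low values Adamtsl2 was higher and Adamts20 lower. Adam32 and Adamts17 had overlapping groups. Of the 50 genes tested, 7 were under 0.5 CPM in at least 1 of the 6 libraries, and 5 of those passed the test (Mmp9, Mmp10, Mmp13 and Mmp24 higher, Adamts16 lower). These 5 reached 0.5 CPM in all 3 libraries of the group in which they are higher, and passed the filter through it. In the other group Mmp10 and Adamts16 reached it in 0 libraries.

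Genes that act on these enzymes were counted from lists of other genes. Of 11 tested genes for zymogen activation and ADAM trafficking, 6 passed the test upward and 3 downward, with a median log2 fold change of 0.39. For these and the next lists the background is again 21.8% (upward) and 24.3% (downward), and the 3 of 11 downward are close to it. Rhbdf2 (iRhom2), which carries ADAM17 to the cell surface, was at 2.30, 3.02 and 2.50 CPM in control and 7.76, 9.45 and 8.75 CPM in senescent libraries (log2 fold change 1.56, SE 0.15, limma adjusted p = 0.000351). Its relative Rhbdf1 (iRhom1), named after its values were seen, was far higher in level, with means of 92.2 CPM in control and 79.6 CPM in senescent FAPs. Rhbdf1 did not pass the test (log2 fold change -0.21, limma adjusted p = 0.144). Adam17 itself was lower, as given above. Of the convertases that cut the propeptides, Pcsk5 was higher (20.4, 24.7 and 27.0 CPM in control, 50.6, 58.7 and 59.3 CPM in senescent libraries, log2 fold change 1.21, limma adjusted p = 0.000391). Pcsk6 was lower (85.6, 61.6 and 100.4 CPM in control, 41.8, 50.2 and 44.8 CPM in senescent libraries, log2 fold change -0.82, limma adjusted p = 0.00662). Furin, the most used of them and named after its values were seen, was lower as well, at 259, 239 and 216 CPM and 185, 176 and 151 CPM (log2 fold change -0.48, limma adjusted p = 0.00821), which did not hold on values divided by library totals (adjusted p = 0.0670). Tspan17, a tetraspanin partner of ADAM10, was at 18.1, 21.1 and 16.0 CPM and 31.7, 33.8 and 32.8 CPM (log2 fold change 0.82, limma adjusted p = 0.00128). Tspan14, a related partner of ADAM10 named after its values were seen, was lower, at 34.2, 36.8 and 34.9 CPM in control and 23.7, 24.5 and 24.9 CPM in senescent libraries (log2 fold change -0.53, limma adjusted p = 0.00164). The tetraspanins Tspan5 and Tspan15, also named after their values were seen, were higher. Tspan5 averaged 37.2 and 64.3 CPM (log2 fold change 0.79, limma adjusted p = 0.000431). Tspan15 averaged 0.218 and 0.531 CPM (log2 fold change 0.52, limma adjusted p = 0.0205) and passed the filter only through the senescent libraries. Its call was lost without control replicate 2, control replicate 3 or senescent replicate 2.

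Of 9 tested genes for other inhibitors, clearance receptors and inducers, 4 were higher and 1 lower, with a median log2 fold change of -0.11. Reck, a membrane-anchored inhibitor of MMPs, was at 22.0, 24.1 and 29.5 CPM in control and 43.2, 51.7 and 55.8 CPM in senescent libraries, 1.99 times the control mean (log2 fold change 0.98, SE 0.14, limma adjusted p = 0.00131). Tfpi2, a protease inhibitor of the Kunitz type, was at 9.11, 25.6 and 11.0 CPM and 25.2, 33.7 and 36.0 CPM, where control replicate 2 overlapped the senescent group (log2 fold change 1.16, limma adjusted p = 0.0290). The testicans Spock1 and Spock2 were higher at a low level, with means of 0.120 and 1.07 CPM in control and 0.542 and 1.99 CPM in senescent FAPs (log2 fold changes 0.79 and 0.69, limma adjusted p = 0.0231 and 0.0411). Spock1 was under 0.5 CPM in every control library and passed the filter only through the senescent libraries. The calls for Tfpi2 and Spock1 were lost without control replicate 1 or 3 or senescent replicate 2 or 3 (adjusted p of at least 0.0731 and 0.0646), and that for Spock1 also with edgeR and DESeq2 on the recovered reads. The call for Spock2 was lost without any one library but control replicate 3 and with edgeR on the recovered reads (adjusted p up to 0.115). The lower gene was Lrp1, a clearance receptor for secreted proteases and their complexes, named after its values were seen. It was at 4065, 4035 and 3852 CPM in control and 3120, 3121 and 2612 CPM in senescent libraries (log2 fold change -0.44, SE 0.15, limma adjusted p = 0.0405), a call lost on values divided by library totals and without any one library but control replicate 2 (adjusted p up to 0.242).

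Of 11 tested metalloproteinases and ADAMTS-like genes outside the naming rule, 4 were higher and 2 lower, with a median log2 fold change of 0.07. Cpxm1, a secreted carboxypeptidase-like protein, was at 53.2, 30.2 and 36.5 CPM in control and 240.1, 213 and 222 CPM in senescent libraries (log2 fold change 2.52, SE 0.19, limma adjusted p = 0.000168). Adamdec1, an ADAM relative, was at 3, 4 and 7 reads in control and 42, 83 and 63 reads in senescent libraries (log2 fold change 1.52, limma adjusted p = 0.000817). It was under 0.5 CPM in every control library and passed the filter only through the senescent libraries. Mme (neprilysin) was higher by 0.78 and Ecel1 by 0.55 on the log2 scale (limma adjusted p = 0.0233 and 0.0196). The call for Mme was lost without any one library but control replicate 2 (adjusted p up to 0.0869), and that for Ecel1 without control replicate 3 or senescent replicate 2 (adjusted p up to 0.0740). The lower genes, the endothelin-converting enzymes Ece1 and Ece2, were named after their values were seen. Ece1 was at 446, 321 and 439 CPM in control and 286, 312 and 305 CPM in senescent libraries, and control replicate 2 lay close to the senescent group (log2 fold change -0.40, limma adjusted p = 0.0399). Ece2 was at 44.7, 38.4 and 44.0 CPM and 35.8, 31.2 and 30.1 CPM (log2 fold change -0.39, limma adjusted p = 0.0169). Both calls were lost on values divided by library totals and without control replicate 1 or 3 or senescent replicate 2 or 3, and that for Ece1 also without senescent replicate 1 (adjusted p up to 0.262 and 0.171). The 2 of 11 lower are near the share over all genes.

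Of 7 tested substrates, that is proteoglycans cleaved by ADAMTS enzymes and growth factors shed by ADAMs, 3 were higher, with a median log2 fold change of 0.54. The 3 were growth factors of the EGF family. Btc (betacellulin) was at 1.05, 2.87 and 1.67 CPM in control and 5.32, 5.81 and 5.09 CPM in senescent libraries (log2 fold change 1.39, limma adjusted p = 0.00498). Tgfa was at 0.357, 0.361 and 0.736 CPM and 1.29, 1.07 and 1.26 CPM (log2 fold change 0.81, limma adjusted p = 0.0110). It was under 0.5 CPM in control replicates 1 and 2 and passed the filter through the senescent libraries. Nrg1 was at 9.44, 14.6 and 11.6 CPM and 15.0, 17.3 and 19.8 CPM (log2 fold change 0.54, limma adjusted p = 0.0380), a call lost without control replicate 1 or 3 or senescent replicate 2 or 3 (adjusted p from 0.0915 to 0.131). The main proteoglycan of the list in level, Vcan (versican), averaged 773 CPM in control and 875 CPM in senescent FAPs and did not pass the test (adjusted p = 0.250).

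Among the 32 genes of the 5 families that passed the test, the control library nearest to the senescent mean was control replicate 2 for 16, against 40.7% of all genes that passed.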

How the data were processed

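RNA of 6 libraries (3 control and 3 senescent FAPs, grouped by their labels) was sequenced after stranded mRNA preparation. The authors scaled counts with edgeR 3.10 in R 3.6.0, and the processing notes of the labels name the mm10 build; the aligner, counter and annotation are not given in the sources used here. The deposited signal is CPM of the effective library size, from which whole reads were recovered for 100% of values (tolerance 0.05 read). The plan assumed CPM, and its test was kept. One line that names no gene (0.0041% to 0.0070% of reads) was left out. The test was limma's (version 3.58.1 in R 4.3.3), two-sided with a variance trend, on log2(CPM + 0.5). The Benjamini-Hochberg adjustment ran over 14776 genes, those that reached 0.5 CPM in 3 or more libraries. Fold changes on this scale understate those of low genes. The script was tested on simulated data.

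The genes, lists and tests were chosen with earlier results of these data known. Every Mmp and Timp gene was named, every other member past the threshold up to 8 per subfamily by size of change, the member of highest CPM, and up to 4 genes per other list; exceptions are stated. Alternatives were other pseudocounts (0.1 and 1), filters (none and 2 CPM) and scalings, leaving out each library, the replicate numbers as a block, the study's volcano threshold, and edgeR 4.0.16 and DESeq2 1.42.0 on recovered reads. Deviations of same-numbered libraries from their group means correlated across genes (r = 0.54, 0.31 and 0.21). For differently numbered libraries r ran from -0.36 to 0.15. The numbers were taken as pairs only in the block alternative. The main test was unpaired. Positions come from GENCODE M21 on GRCm38.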

Additional observations from a re-analysis of the deposited data

How the results depend on the processing

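With limma, the count of genes of the 5 families that were higher in senescent FAPs (20) ranged from 15 to 22 and that of lower genes (12) from 8 to 15 over the alternatives that kept the adjusted p threshold. At the threshold of the study's volcano plot (unadjusted p under 0.01 and log2 fold change beyond 1), 9 were higher and 5 lower. Leaving out each library in turn gave 15 to 19 higher and 8 to 14 lower genes, with the fewest of both without senescent replicate 2 (15 and 8); senescent replicate 3 left 15 and 9. With the replicate numbers as a block, 22 were higher and 15 lower: Mmp16, Adam22, Adam10, Adamts14 and Adamts3 passed in addition, and the pairing changed no other call among these genes. Division by library totals moved the median log2 fold change of all genes from -0.03 to 0.17 and the share of higher genes among all called from 47.3% to 72.1%, and gave 21 higher and 8 lower genes of the families (Mmp11 gained, and Mmp14, Adam17, Adamts2 and Adamts6 lost). edgeR's quasi-likelihood test gave 19 and 12, and DESeq2 20 and 13. The sign of Timp3 turned with median-of-ratios scaling (0.0131), division by library totals (0.208), edgeR (0.0141) and DESeq2 (0.0273), and over the libraries left out it ran from -0.10 to 0.11 (0.107 without control replicate 3 and 0.0581 without senescent replicate 1). Of 64 genes of the families and the other lists that were followed singly, 55 passed the test, and 33 of these kept direction and call in every alternative in which they had a value. Genes under 1 CPM rest on few reads per library, which limits what could be detected in them.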
